A study of Mus musculus with 7 samples.

Results

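*Cdkn1a* and *Cdkn1b* encode the cyclin-dependent kinase (CDK) inhibitors p21 and p27, and their binding by RNA POLII, C-MYC and SOX2 was examined in all 6 deposited peak lists. A peak was taken as a member if it overlapped the window chr17:29217000-29248000 for *Cdkn1a* or chr6:134860000-134886000 for *Cdkn1b* (mm9) by at least 1 bp. Each window was set to reach about 10 kb to either side of the gene, and its position was given with the rule and not read from an annotation. Of the 238420 peaks in the 6 lists, 19 were members, 8 at *Cdkn1a* and 11 at *Cdkn1b*.

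The samples were ChIP-seq libraries of immortalized multipotent otic progenitor (iMOP) cells, a mouse line made by infecting SOX2-expressing progenitors of the embryonic cochlea with a *c-Myc* retrovirus. All the cells carried that retrovirus, and all were grown as floating otospheres in 20 ng/ml of bFGF, with no untreated or uninfected group. ChIP was done with antibodies against RNA POLII (clone 4H8), the N-terminal part of C-MYC (N-262) and SOX2 (clone 6F1.2), with 2 samples described as biological replicates for each. The input DNA was not analysed here, and the identity of the cells could not be checked against marker genes because the lists name no genes. The labels do not say which clonal line was used, and they allow for small molecules in some cultures without saying in which.

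Both proteins belong to the CIP/KIP family, which binds cyclin-CDK complexes and holds cells in G1. *Cdkn1a* is a classical target of p53 and is repressed by C-MYC acting through the zinc finger protein MIZ1. *Cdkn1b* marks the progenitors that leave the cell cycle in the developing cochlea, and its protein is removed by the SKP2 ubiquitin ligase when cells divide.

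ChIP-seq pulls down the DNA that a protein occupies with an antibody and reads it as short tags, and a peak marks where tags exceed their background. The summit is the position of most tags within a peak. For each peak the lists gave the tags, a score (the −log10 p-value multiplied by 10) and the fold enrichment over background, and no p-value was above 1e-05. Lists held between 26637 and 53528 peaks, and between 1705241 and 4488517 tags in peaks. Tags were therefore also scaled to a total of 1000000 tags in the peaks of each list, and these values are called scaled tags. That scale sets a peak against its own list, and it does not measure absolute occupancy.

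The replicates did not stand on equal footing. Over 35477 peaks matched 1 to 1, the tags of the C-MYC replicates differed by less than the sampling noise (chi-square per degree of freedom 0.983, p = 0.99). The same ratio was 25.9 over 16428 SOX2 pairs and 74.5 over 5185 POLII pairs. Keeping pairs with lengths within 5% lowered it for every antibody, to 0.442 for C-MYC (9371 pairs), 16.8 for SOX2 (1944) and 20.8 for POLII (287). The C-MYC lists were therefore counted as 1 sample, which left 5 distinct samples, and their values are given without an SD. POLII replicate 1 stood apart from POLII replicate 2. It shared 9.83% of its peaks with that list and had a median of 23 tags per peak, against 68.

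RefSeq promoter sequences are shown for both genes because promoters are where POLII loads and where the motifs of C-MYC and SOX2 can be looked for. RefSeq lists 2 starts for *Cdkn1a*, and each sequence holds the 250 bases before a start, 5′ to 3′ on the plus strand. Capitals mark matches to the motifs searched. The positions are on GRCm38.p6, a later build than that of the peaks, so they were not set against peak positions, and whether a peak covers a start was not tested.
Cdkn1a first start, chr17:29090729-29090978: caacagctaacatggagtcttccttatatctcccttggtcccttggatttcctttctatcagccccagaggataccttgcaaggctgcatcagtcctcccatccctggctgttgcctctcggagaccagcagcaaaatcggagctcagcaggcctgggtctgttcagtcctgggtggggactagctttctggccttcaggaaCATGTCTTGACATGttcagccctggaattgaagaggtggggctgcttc
Cdkn1a second start, chr17:29093519-29093768: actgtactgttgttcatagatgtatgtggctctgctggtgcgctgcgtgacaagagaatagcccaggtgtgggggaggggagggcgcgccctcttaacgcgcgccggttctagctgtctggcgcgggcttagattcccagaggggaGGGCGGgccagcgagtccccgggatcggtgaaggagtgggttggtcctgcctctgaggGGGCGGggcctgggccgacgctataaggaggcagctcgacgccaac
Cdkn1b, chr6:134920151-134920400: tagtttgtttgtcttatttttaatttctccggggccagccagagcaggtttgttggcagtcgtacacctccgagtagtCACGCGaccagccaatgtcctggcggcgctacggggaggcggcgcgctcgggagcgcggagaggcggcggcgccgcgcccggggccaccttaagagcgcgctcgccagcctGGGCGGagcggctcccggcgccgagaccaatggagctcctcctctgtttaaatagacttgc

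The first *Cdkn1a* promoter differed in base composition from the second and from that of *Cdkn1b*. The first *Cdkn1a* promoter held 2 CpG dinucleotides, fewer than the median of 6 over 32851 RefSeq promoter sequences. The second *Cdkn1a* promoter held 19 and that of *Cdkn1b* 28, which was more than in 92.4% of promoters. The GC content was 54.0% and 64.8% at *Cdkn1a* and 64.4% at *Cdkn1b*, against a median of 52.4%.

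The motifs were searched on both strands, and a match describes letters only. No E-box (CACGTG, in 6.02% of all promoters) and neither SOX core motif (ACAAT, in 27.7%, or ACAAAG, in 16.5%) was found in these 3 windows. The variant E-box CACGCG, in 7.62% of promoters, occurred once at *Cdkn1b*, 172 bases before the start. The GC box GGGCGG, in 32.7% of promoters, occurred at 2 places in the second *Cdkn1a* promoter and at 1 in that of *Cdkn1b*. A further pattern, a pair of CATG cores with 6 bases between them, resembles the paired core of a p53 response element and was searched for after the sequences had been seen. It matched once in the first *Cdkn1a* promoter, 48 bases before the start, and in 0.49% of all promoters.

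At *Cdkn1a*, 1 region of about 2.7 kb was occupied in 5 of the 6 lists (chr17:29230154-29232904). POLII, C-MYC and SOX2 all had a peak there, and SOX2 replicate 2 was the only list without one anywhere in the window. A 31 kb stretch of the genome held a peak in 42.5% and 26.1% of cases in POLII replicates 1 and 2, in 32.2% and 33.5% in the C-MYC replicates, and in 33.4% and 24.4% in the SOX2 replicates. A single list with a peak was thus no rare event for a window of this size, and the size and position of the peaks carried more information. In the 5 lists with a peak, the tags of the window were above those of 70.8% (POLII replicate 2) to 98.7% (POLII replicate 1) of the stretches that held a peak.

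**Figure D1:**
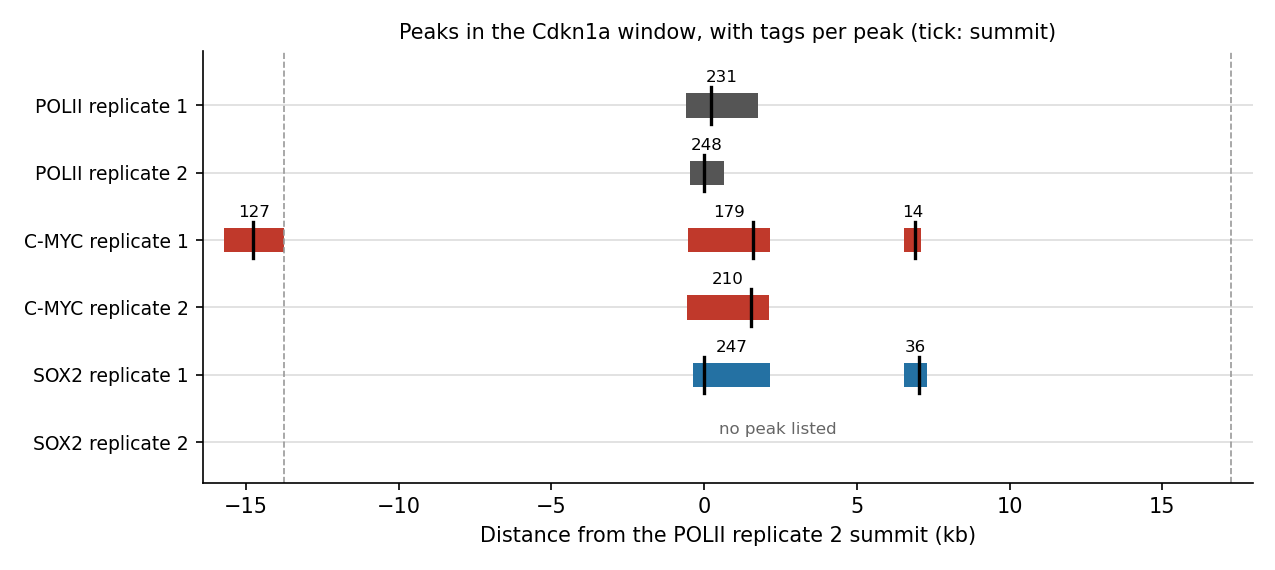
Peaks in the *Cdkn1a* window, 1 line per list, placed by distance in kb from the POLII replicate 2 summit. Bars are peaks, ticks are summits, numbers are tags and dashed lines are the window ends. The main region is seen in 5 lists, with the C-MYC summits 1595 and 1540 bp to the right of the POLII replicate 2 summit.

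RNA POLII, the enzyme that transcribes both genes, gave 231 tags in replicate 1 and 248 in replicate 2 at the main region. These were 135.5 and 55.3 scaled tags (mean 95.4 ± 56.8, SD, n = 2). The peaks were alike in tags but not in standing. The replicate 1 peak ranked 165 of 53528 by tags, with 99.7% of its list below it, and the replicate 2 peak ranked 5891 of 31796, with 81.4% below. By fold enrichment the order turned, with 4.67 in replicate 1, above 7.48% of its list, and 15.7 in replicate 2, above 94.7%. The ratio of 2.45 between the replicates in scaled tags was below the median of 3.45 over 5274 POLII pairs.

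The C-MYC lists held 179 and 210 tags at the main region, or 62.6 and 66.6 scaled tags. These peaks ranked 3403 of 42435 and 2966 of 44146, so 91.9% and 93.2% of the peaks had fewer tags. The same peaks were long, 2693 and 2704 bp, and had a low fold enrichment of 6.67 and 7.11, above 10.7% and 15.5% of their lists. The high place by tags and the low place by fold thus came from the same broad peaks.

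SOX2 replicate 1 held 247 tags there, or 89.6 scaled tags, and the peak ranked 1690 of 39878, above 95.7% of its list. SOX2 replicate 2 listed no peak in the window, and its nearest peak on the upstream side lay 16167 bp outside. Among the 1709 SOX2 replicate 1 peaks with at least as many tags, 81.0% overlapped a peak of replicate 2 (95% Wilson interval 79.1 to 82.8). *Cdkn1a* was thus among the 19.0% of SOX2 peaks large by tags without a counterpart. The peaks were matched on tags alone. The *Cdkn1a* peak was 2511 bp long and stood lower by score, above 77.45% of its list. By fold enrichment (8.11) it stood above 38.0%. The list gives no tags outside peaks, so tags below the threshold in replicate 2 were not measurable.

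The position of the C-MYC summits set the *Cdkn1a* region apart from most of the genome. The POLII replicate 2 and SOX2 replicate 1 summits were 3 bp from each other, whereas the C-MYC summits lay 1592 and 1537 bp downstream of the SOX2 summit. They were 955 and 900 bp past the end of the POLII replicate 2 peak, but inside the longer peaks of POLII replicate 1 and SOX2 replicate 1. Against the POLII replicate 1 summit the distances were 1383 and 1328 bp. As the C-MYC lists counted as 1 sample, the displacement has no replicate check. Among all overlapping C-MYC and SOX2 replicate 1 peaks, 0.238% of 23912 pairs and 0.239% of 24257 pairs, for C-MYC replicates 1 and 2, had summits at least as far apart, and the median distance was 46 bp. Long peaks leave more room for such a distance. Among the pairs in which both peaks were at least 2000 bp long, 3.22% of 714 and 3.29% of 852 were as far apart.

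**Figure D2:**
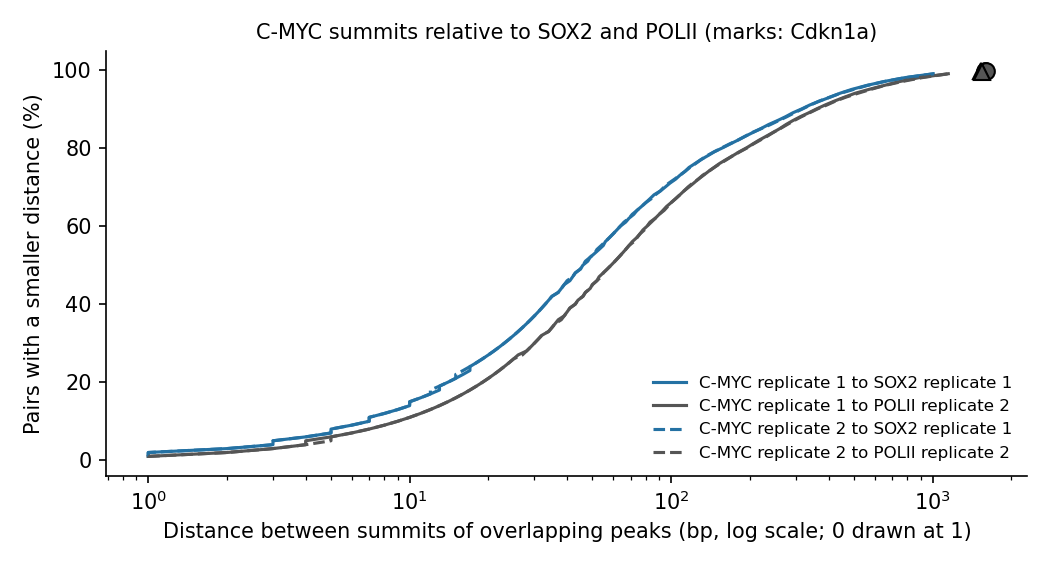
Distance in bp (log axis) between summits of overlapping peaks, as the percentage of pairs with a smaller distance. Lines are the C-MYC lists against SOX2 replicate 1 and POLII replicate 2, and marks are *Cdkn1a*, where the distances of 1537 to 1595 bp lie at the far right end against medians of 46 and 59 bp.

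A set of smaller peaks completed the *Cdkn1a* window. About 7 kb past the POLII summit, C-MYC replicate 1 had a peak of 14 tags and SOX2 replicate 1 a peak of 36 tags, above 14.7% and 50.4% of their lists. A peak of 127 tags in C-MYC replicate 1 reached into the window by only 9 bp at its upstream end. The same upstream region carried a peak in C-MYC replicate 2, SOX2 replicate 1 and POLII replicate 2 that ended 316, 494 and 537 bp outside the window, so its count as a member rests on the window edge. In RefSeq order the next genes on that side are the long non-coding RNA *Trp53cor1*, *Gm41556* and the splicing factor gene *Srsf3*, and on the other side *Rab44*.

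At *Cdkn1b*, 2 regions were occupied in the same 5 lists, and POLII replicate 1 had no peak in the window. They are called the promoter-side region (chr6:134869672-134871211) and the downstream region (chr6:134877254-134879508) by their place in the window, and neither was set against annotated gene ends. A 26 kb stretch of the genome held a peak in 38.0% and 23.3% of cases in POLII replicates 1 and 2, in 29.3% and 30.4% in the C-MYC replicates, and in 30.0% and 21.6% in the SOX2 replicates. In the 5 lists with peaks, the tags of the window were above those of 83.2% (SOX2 replicate 2) to 98.4% (SOX2 replicate 1) of the stretches that held a peak.

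**Figure D3:**
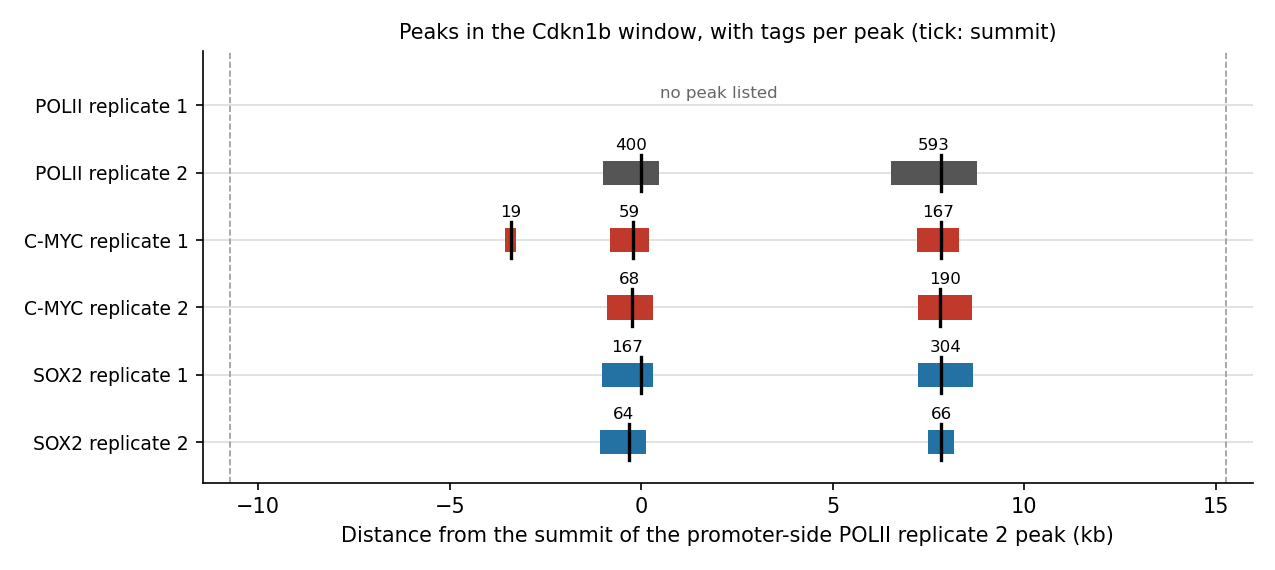
Peaks in the *Cdkn1b* window, 1 line per list, placed by distance in kb from the summit of the promoter-side POLII replicate 2 peak. Bars are peaks, ticks are summits, numbers are tags and dashed lines are the window ends, and the downstream summits of all 5 lists with peaks fall between 7806 and 7831 bp.

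POLII replicate 2 held 400 tags at the promoter-side region and 593 at the downstream region, or 89.1 and 132.1 scaled tags. The downstream peak ranked 830 of 31796, with 97.4% of the list below it, and the promoter-side peak ranked 2528. Both were among the larger POLII peaks of that list. By score the order turned, with 742.9 at the promoter side and 515.0 downstream, above 92.9% and 85.7% of the list. By fold enrichment the downstream peak was again the higher, at 13.58 against 7.09. Of the POLII replicate 2 peaks with at least 400 tags, 31.6% had a peak in replicate 1, and of those with at least 593 tags 33.9%, so absence from replicate 1 was the more frequent case for peaks of this size. The POLII values at *Cdkn1b* rest on 1 sample.

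C-MYC was at the promoter-side region with 59 and 68 tags in its lists, or 20.6 and 21.6 scaled tags, above 64.5% and 67.1% of the peaks. At the downstream region it had 167 and 190 tags, or 58.4 and 60.3 scaled tags, above 90.8% and 91.7%. The downstream peak was thus the larger in both C-MYC lists, by 2.83 and 2.79 times.

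SOX2 replicate 1 held 167 tags at the promoter side and 304 downstream, or 60.6 and 110.2 scaled tags. SOX2 replicate 2 held 64 and 66 tags, or 35.9 and 37.0 scaled tags. Both SOX2 replicates had both peaks, which differed in size (downstream mean 73.6 ± 51.8, SD, n = 2). The replicate 1 downstream peak ranked 859 of 39878, above 97.8% of its list, and that of replicate 2 ranked 8917 of 26637, above 65.8%. The ratio of 2.98 between the replicates there was reached or passed in either direction by 21.5% of 16665 SOX2 pairs. In its own direction it was unusual, since replicate 1 over replicate 2 had a median of 0.679 and was lower than here in 96.1% of pairs. The promoter-side peak of replicate 2 had a score of 50.3, just inside the lowest score of 50 in the list, and only 0.792% of its peaks scored lower.

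**Figure D4:**
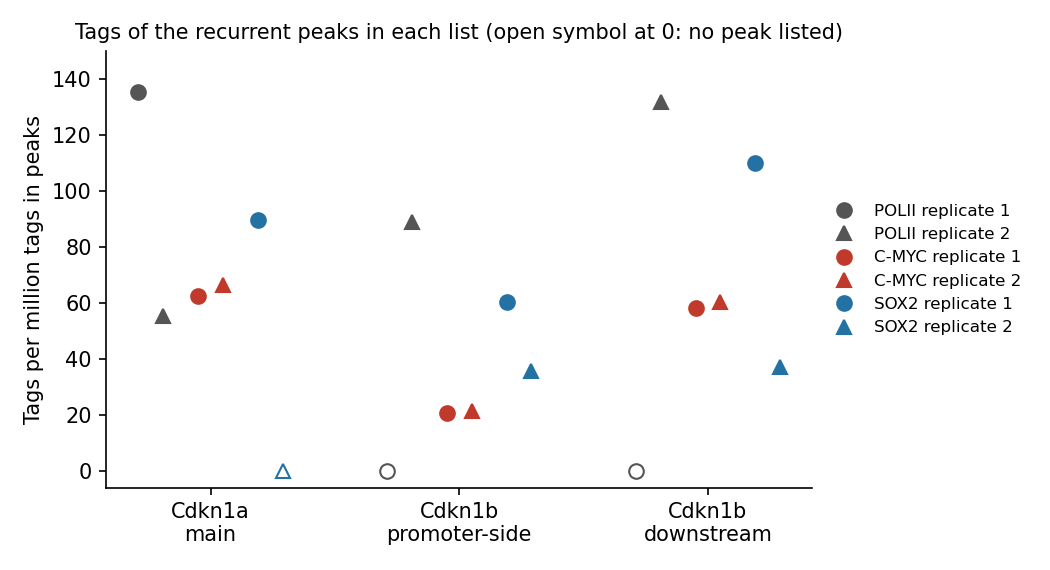
Scaled tags, or tags for every 1000000 tags in the peaks of a list (vertical axis), of the 3 recurrent regions in each of the 6 lists, with open symbols at 0 where no peak was listed. At the downstream *Cdkn1b* region POLII replicate 2 (132.1) and SOX2 replicate 1 (110.2) are highest, and at the *Cdkn1a* region POLII replicate 1 (135.5) is highest.

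The balance between the *Cdkn1b* regions varied over the lists. Of the tags in both regions, the downstream region held 59.7% in POLII replicate 2 (95% Clopper-Pearson interval 56.6 to 62.8). It held 73.9% (67.7 to 79.5) and 73.6% (67.8 to 78.9) in the C-MYC lists. In SOX2 it held 64.5% (60.0 to 68.9) and 50.8% (41.9 to 59.6). The C-MYC and POLII intervals did not overlap, the C-MYC intervals overlapped that of SOX2 replicate 1, and the interval of SOX2 replicate 2 covered equal shares of tags. In SOX2 replicate 2 the downstream peak was the shorter, at 679 against 1202 bp. It had the higher score (174.4 against 50.3) and fold enrichment (10.15 against 4.86). The intervals cover counting error only, and the SOX2 replicates differed from each other by more than it (mean 57.7 ± 9.74%, SD, n = 2). These shares also depend on peak length, which was 2255 bp downstream and 1465 bp at the promoter side in POLII replicate 2. Per 100 bp that list held 26.3 tags downstream and 27.3 at the promoter side. The C-MYC lists held 15.15 and 13.59 downstream against 5.80 and 5.70. In the SOX2 replicates the values were 21.04 and 9.72 downstream against 12.51 and 5.32.

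The downstream summits of POLII, C-MYC and SOX2 fell on nearly the same position, between 7806 and 7831 bp from the promoter-side POLII summit. At the promoter side the spread was larger. There the SOX2 replicate 1 summit was 2 bp from the POLII summit, those of C-MYC stood at −227 and −234 bp and that of SOX2 replicate 2 at −332 bp, where minus is upstream. The gene next in RefSeq order on the downstream side is *Lockd*, a long non-coding RNA, followed by *Gm36428* and *Apold1*, and on the other side lie *2810454H06Rik* and *Gpr19*. No annotation of the mm9 build was used, so whether the downstream region covers the start of *Lockd* was not tested. A small upstream peak of 19 tags, at −3.41 kb from the promoter-side POLII summit, was listed in C-MYC replicate 1 alone.

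The amount of C-MYC and SOX2 was also set against that of POLII replicate 2 in overlapping peaks, with the tags of whole peaks. At *Cdkn1a*, C-MYC in scaled tags was 1.13 and 1.21 times that of POLII, close to the medians of 1.047 and 1.055 over all overlapping pairs. At the promoter side of *Cdkn1b* it was 0.232 and 0.242 times, and 2.26% and 2.45% of pairs had a lower ratio. The downstream *Cdkn1b* region was at 0.442 and 0.456 times, with 13.3% and 13.9% of pairs lower. SOX2 replicate 1 had ratios of 1.62, 0.679 and 0.834 at the *Cdkn1a*, promoter-side and downstream *Cdkn1b* regions against a median of 1.03. In SOX2 replicate 2 the *Cdkn1b* ratios were 0.403 and 0.28 against a median of 2.14, and 11.1% and 3.47% of pairs were lower. The *Cdkn1a* ratios depend on the POLII list. Against POLII replicate 1, which had no peak at *Cdkn1b*, they were 0.462 and 0.492 for the C-MYC lists and 0.661 for SOX2 replicate 1, with 33.9%, 38.2% and 60.3% of pairs lower. The contrast between the genes in these ratios thus rests on POLII replicate 2. It also rests on whole peaks of unlike length. At *Cdkn1a* the C-MYC peaks (2693 and 2704 bp) were longer than that of POLII replicate 2 (1097 bp), and their summits lay past its end. At *Cdkn1b* the POLII peaks were the longer, at 1465 against 1017 and 1193 bp at the promoter side and 2255 against 1102 and 1398 bp downstream. Whether the contrast holds per bp was not tested.

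**Figure D5:**
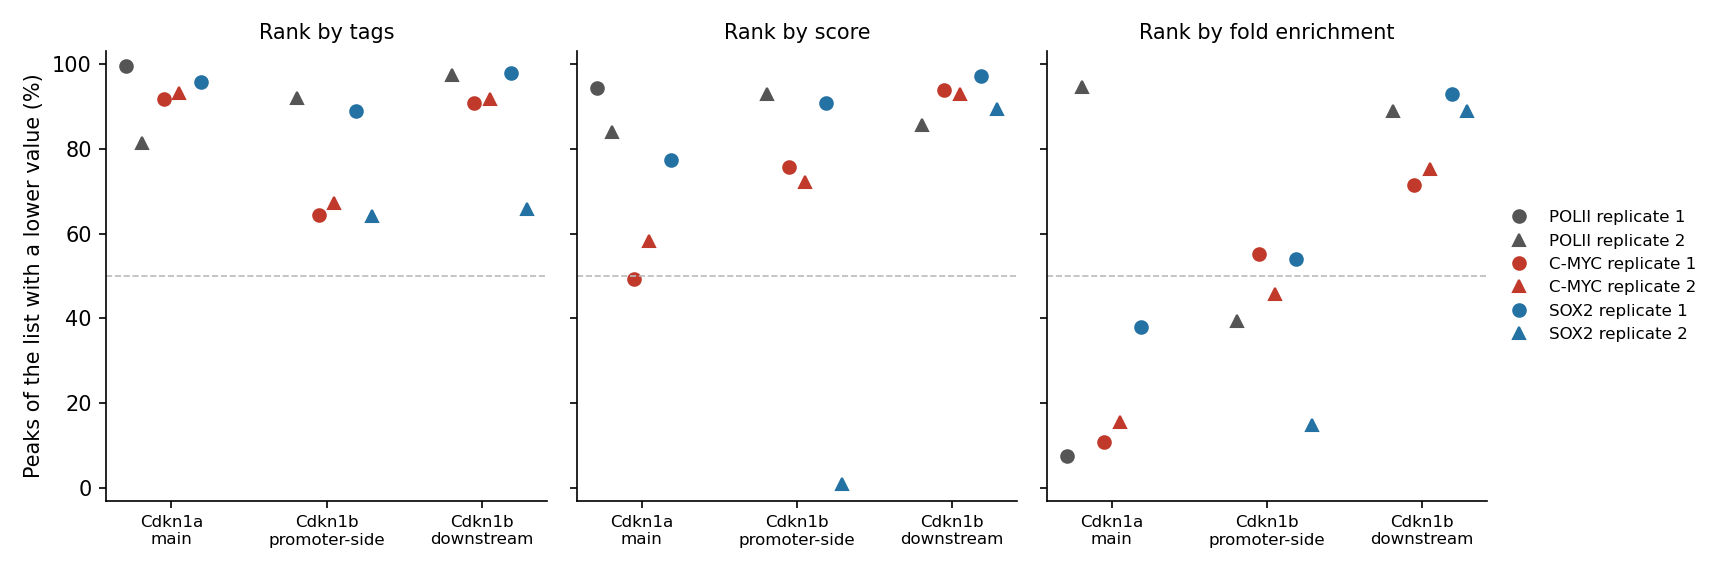
Percentage of the peaks in the same list with a lower value (vertical axis), by tags, by score and by fold enrichment, for the 3 recurrent regions in each list with a peak. By tags the *Cdkn1a* peaks lie above 81.4% to 99.7% of their lists, whereas by fold enrichment 4 of the 5 lie below the middle of the list, between 7.48% and 38.0%.

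The same windows were then compared between factors and between genes, with all peaks of a window summed. At *Cdkn1a* the sums were 111.9 and 66.6 scaled tags in the C-MYC lists and 102.6 and 0 in SOX2. C-MYC minus SOX2 was 3.10 on the log2(scaled tags + 1) scale. This difference rested on the missing peak of SOX2 replicate 2, which enters as 0, so that its size is set by the pseudocount (4.75 with 0.1 in place of 1). Without that list it was −0.25. The edge peak gave C-MYC replicate 1 much of its sum, which was 67.5 when only peaks with their summit in the window were counted. At *Cdkn1b* the sums were 85.7 and 81.8 in C-MYC and 170.8 and 72.9 in SOX2, a difference of −0.41, and without SOX2 replicate 1 it was 0.20. With C-MYC as 1 sample against 2, both differences had p = 1 in a two-sided exact permutation test, in which the smallest p is 0.333. At *Cdkn1b* the SOX2 replicates differed from each other by more than C-MYC differed from their mean.

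Within each list, *Cdkn1b* minus *Cdkn1a* was −7.09 and 1.98 in POLII replicates 1 and 2, −0.38 and 0.29 in the C-MYC lists and 0.73 and 6.21 in the SOX2 replicates. The extreme values came from the lists in which 1 of the genes had no peak and entered as 0, and with a pseudocount of 0.1 they were −10.4 and 9.51. They give a direction but no measured size. The −0.38 of C-MYC replicate 1 rested on the edge peak and was 0.34 when summits had to lie in the window. Over the 5 distinct samples the mean was 0.36 (two-sided exact sign-flip permutation test, p = 0.875, smallest possible p 0.0625). No direction held: without POLII replicate 1 the mean was 2.22, without POLII replicate 2 it was −0.05 and without SOX2 replicate 2 −1.11. Because the values set by the pseudocount dominate this spread, the test says little about a difference between the genes. In the lists with peaks at both genes, and with the C-MYC summits in the window, *Cdkn1b* had the higher sum, by 0.29 to 1.98. That sum holds 2 recurrent regions at *Cdkn1b* and 1 at *Cdkn1a*. By largest peak alone, the C-MYC lists were higher at *Cdkn1a* (62.6 against 58.4 and 66.6 against 60.3 scaled tags). POLII replicate 2 (132.1 against 55.3) and SOX2 replicate 1 (110.2 against 89.6) were higher at *Cdkn1b*.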

How the data were processed

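Peak lists of 6 ChIP-seq samples were analysed, 2 each for RNA POLII, C-MYC and SOX2. The authors called peaks in each sample and deposited 1 list per sample, with raw counts of tags, a score that multiplies the −log10 of a p-value by 10, and the fold enrichment, a linear ratio over background. Per the labels the samples were biological replicates. The build, mm9, is that of the submitters' processing notes. The aligner, the peak caller, its control and the filters are not given in the sources used here.

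The windows were those of the rule. Genome shares came from non-overlapping tiles of the window's length along each chromosome, up to its last peak. Overlap was at least 1 bp. Each test used log2(scaled tags + 1), with tags scaled to 1000000 tags in the peaks of each list, with exact permutations. Intervals have a 95% level and cover counting error only. Depth is known only as tags in peaks, from 1705241 to 4488517 per list, and limits small peaks most. The design had set the C-MYC replicates as 2 samples, and they were counted as 1 because their counts agree within sampling noise. The members, lists and tests were chosen with earlier results of these data known. Both genes were always named. Other cell-cycle genes were to be named only with positions on mm9 and are not analysed here. Alternatives changed the window, scaling, pseudocount, score threshold, rank measure and samples. python 3.11.15, numpy 2.4.6, pandas 2.3.3, scipy 1.17.1 and matplotlib 3.10.9 were used, and the scripts were tested on simulated data.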

Additional observations from a re-analysis of the deposited data

How the results depend on the processing

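Each gene had a peak in 5 of the 6 lists. Both counts stayed at 5 when the window was shortened and when summits had to lie in it. They also stayed at 5 with the 50% of each list with the highest score, and when lists were cut to equal size. The rest of the 10 alternatives for each gene left out 1 list each. There a count of 4 or 5 follows from the list dropped, so it does not test the processing. Ranked by tags, the largest peak at *Cdkn1a* lay above a median of 93.2% of its list, over the 5 lists with a peak. By score this was 77.4%, by tags per bp 82.7% and by fold enrichment 15.5%. At *Cdkn1b* the median of 91.7% stayed between 89.0% and 94.5% under all 8 alternatives. Both C-MYC lists enter these medians, although they were counted as 1 sample elsewhere, and by tags each median is the C-MYC replicate 2 value. Without C-MYC replicate 1 or 2 the *Cdkn1a* median was 94.5% and 93.8%.

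C-MYC minus SOX2 at *Cdkn1a* ran from −0.25 to 6.45 when 1 list was left out. At *Cdkn1b* it ran from −1.02 to 0.20, was 0.022 with raw tags and 0.012 with the 50% of each list with the highest score. *Cdkn1b* minus *Cdkn1a* ran from −1.11 to 2.22 and was −0.085 with the largest peak alone. The replicate numbers were not taken to pair the samples. Deviations of same-numbered samples correlated at −0.015 (POLII and C-MYC), −0.056 (POLII and SOX2) and 0.004 (C-MYC and SOX2) over 51967 tiles. The values with C-MYC could show little, as its lists differed by no more than sampling noise. None of them can tell whether same-numbered samples shared a culture. With a replicate block the differences were 3.10 (exact permutation p = 0.5, the smallest that 2 pairs allow) and −0.41 (exact permutation p = 1), and with the C-MYC lists as 2 samples, an alternative chosen after seeing the data, no test passed either. The list holds no tags below its threshold, and with 5 distinct samples no test here could reach 0.05, which limits every comparison of factors and genes.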
